A study of Mus musculus with 6 samples.

Results

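The Zfp zinc finger genes were taken as the rows of the deposited count matrix whose mouse symbol, read from the Ensembl identifier, is "Zfp" followed by a number. They numbered 119 of the 13685 rows in the matrix. The annotation used here lists 374 such genes, so the rows cover 31.8% of them, and the other 255 were not analysed here. The series compared 2 groups of wild-type mouse CD4+ T cells, each with 3 libraries. The cells came from the spleen and mesenteric lymph nodes of C57BL/6 mice and were depleted of CD25+ cells, a step that removes regulatory T cells. Cells at 1000000 per well were kept for 4 hours either with 0.15 µg/mL tunicamycin, an inhibitor of N-linked glycosylation that burdens the endoplasmic reticulum with misfolded protein, or with vehicle alone (the sample titles call these libraries untreated). The 3 libraries per group are labelled as technical replicates. Standard errors and p-values below therefore measure library-to-library spread, which may be technical, and not spread between mice, and neither the number of mice nor any pooling is stated in the labels.

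The name Zfp was given to mouse genes whose proteins hold zinc fingers, short folds in which cysteine and histidine side chains grip a zinc ion. In the common C2H2 finger, a pair of cysteines and a pair of histidines hold the zinc and a short helix reads a few bases of DNA, and fingers placed in a row read longer sites. Many of these proteins also carry a KRAB domain, through which the co-repressor TRIM28 and histone methyltransferases are brought to DNA, in particular to transposable elements. A smaller group has CCCH fingers, which bind RNA; Zfp36, known as tristetraprolin, uses them to hold AU-rich elements in cytokine mRNAs and send those mRNAs to decay.

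The coding sequence of single fingers shows what separates these types and how closely a pair of near-copies can match. The sequences were cut from the coding sequences of the GENCODE M21 mouse annotation, with positions on GRCm38, and run 5′ to 3′ on the coding strand. Each starts at the first zinc-binding residue of a finger and ends at the last, and capitals mark the codons of the zinc-binding cysteines and histidines. Each lies within 1 exon, in the coding part of its gene. The CCCH finger of Zfp36 comes from chr7:28378158-28378217, minus strand, and the C2H2 fingers from chr8:69707316-69707378, minus strand (Zfp869), chr7:5029681-5029743, plus strand (Zfp865), chr9:122853399-122853461, minus strand (Zfp445), chr17:17087503-17087565, plus strand (Zfp960) and chr17:17144718-17144780, plus strand (Zfp97).
Zfp36: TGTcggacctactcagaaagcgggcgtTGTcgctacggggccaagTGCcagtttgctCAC
Zfp869: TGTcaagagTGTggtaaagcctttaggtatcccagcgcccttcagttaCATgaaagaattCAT
Zfp865: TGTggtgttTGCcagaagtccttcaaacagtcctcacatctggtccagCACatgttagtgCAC
Zfp445: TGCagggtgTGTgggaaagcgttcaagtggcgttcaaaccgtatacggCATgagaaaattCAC
Zfp960: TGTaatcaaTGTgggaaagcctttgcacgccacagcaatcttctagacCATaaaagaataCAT
Zfp97: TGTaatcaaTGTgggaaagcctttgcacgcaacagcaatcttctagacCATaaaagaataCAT
Zfp36 was chosen as the CCCH member, Zfp445 and Zfp869 as highly expressed members with a KRAB match, Zfp865 as a highly expressed member without one, and Zfp960 with Zfp97 as near-copies. In Zfp36, 3 cysteines and 1 histidine stand in capitals, with 8 residues between the first and second cysteine, whereas the C2H2 fingers open with 2 cysteines close together and close with 2 histidines. The fingers shown from Zfp960 and Zfp97 differed at 1 of 63 bases, C31A, with the base of Zfp960 first and positions counted from the first base printed.

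Of the 118 members with a coding sequence in the annotation, 111 matched at least 1 C2H2 finger pattern, with a median of 10 fingers and a maximum of 33 in Zfp619. A KRAB pattern was matched in 64 members and not matched in 54. That share, 54.2%, lay near the 53.4% found among all 363 annotated Zfp genes with a coding sequence. The conserved 5-residue linker that often joins neighbouring C2H2 fingers was found in 91 members. The 63 C2H2 members with a KRAB match had a median of 12 fingers (3 to 33), and the 48 without had a median of 7 (1 to 21). These are pattern matches in the longest annotated coding sequence and not a domain annotation. The CCCH pattern, for example, matched Zfp330, a nucleolar protein, besides Zfp36.

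The members sat on 18 chromosomes, with 32 on chromosome 7 and 17 on chromosome 17. In 15 places at least 3 members lay in a row with gaps of at most 500 kb, and these runs held 62 of the 119. The largest run, chr17:21008903-22225616 on GRCm38, held 10 members, all 10 with a KRAB match. In that run the mean level ranged from 0.0986 TPM (transcripts per 1000000, a level per transcript length that can be compared between genes) for Zfp820 to 49.2 TPM for Zfp53. A run of 6 members at chr13:67038596-67526177 was also KRAB-matched throughout, from 0.479 to 22.1 TPM. None of the 5 members at chr7:4915217-5053723 (Zfp628, Zfp524, Zfp865, Zfp784 and Zfp580) matched KRAB, and their levels ran from 3.83 to 33.0 TPM. Members within a run thus differed widely in level.

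The libraries held between 7412151 and 11211270 summed estimated counts, with all 3 vehicle libraries (up to 9495725) below all 3 tunicamycin libraries (from 10584276). TPM summed to between 319120 and 332870 in each library, short of the 1000000 of a full table, so the rows cover part of each transcriptome. Markers of the labelled cells with a row were high (Il7r 912, Cd3e 588, Cd3d 238, Cd28 203 and Cd5 123 TPM). The B cell marker Cd79a was at 0.915 TPM. Summed TPM of 7 natural killer and innate-like markers was 11.7 to 12.6 in vehicle and 14.3 to 19.5 in tunicamycin libraries, Lyz2, the only macrophage marker with a row, spanned 2.94 to 8.52 and 3.55 to 10.4, and Cd8b1 spanned 9.47 to 10.8 and 10.5 to 11.9.

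The Zfp genes with a row were broadly transcribed in these T cells at low to moderate levels. They had a median of 2 annotated transcripts, against 4 over all annotated Zfp genes. The shares below therefore describe the members and may not hold for the 255 genes without a row. A mean of at least 1 TPM over the 6 libraries was reached by 85 of 119 members (71.4%), against 20.7% of all rows and 28.1% of protein-coding rows. Levels of at least 10 TPM were reached by 37 members (31.1%), against 18.0% of protein-coding rows, and the median member stood at 4.31 TPM. Summed over the members, TPM was 1256 ± 37.4 (SD, n = 3) in vehicle and 1311 ± 12.4 (SD, n = 3) in tunicamycin libraries, that is 0.378% ± 0.012 and 0.402% ± 0.011 of the TPM in the table. As a share of counts the members held 1.01% ± 0.026 in vehicle and 1.05% ± 0.013 in tunicamycin libraries. The 10 highest members held 40.8% of the summed TPM.

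**Figure D1:**
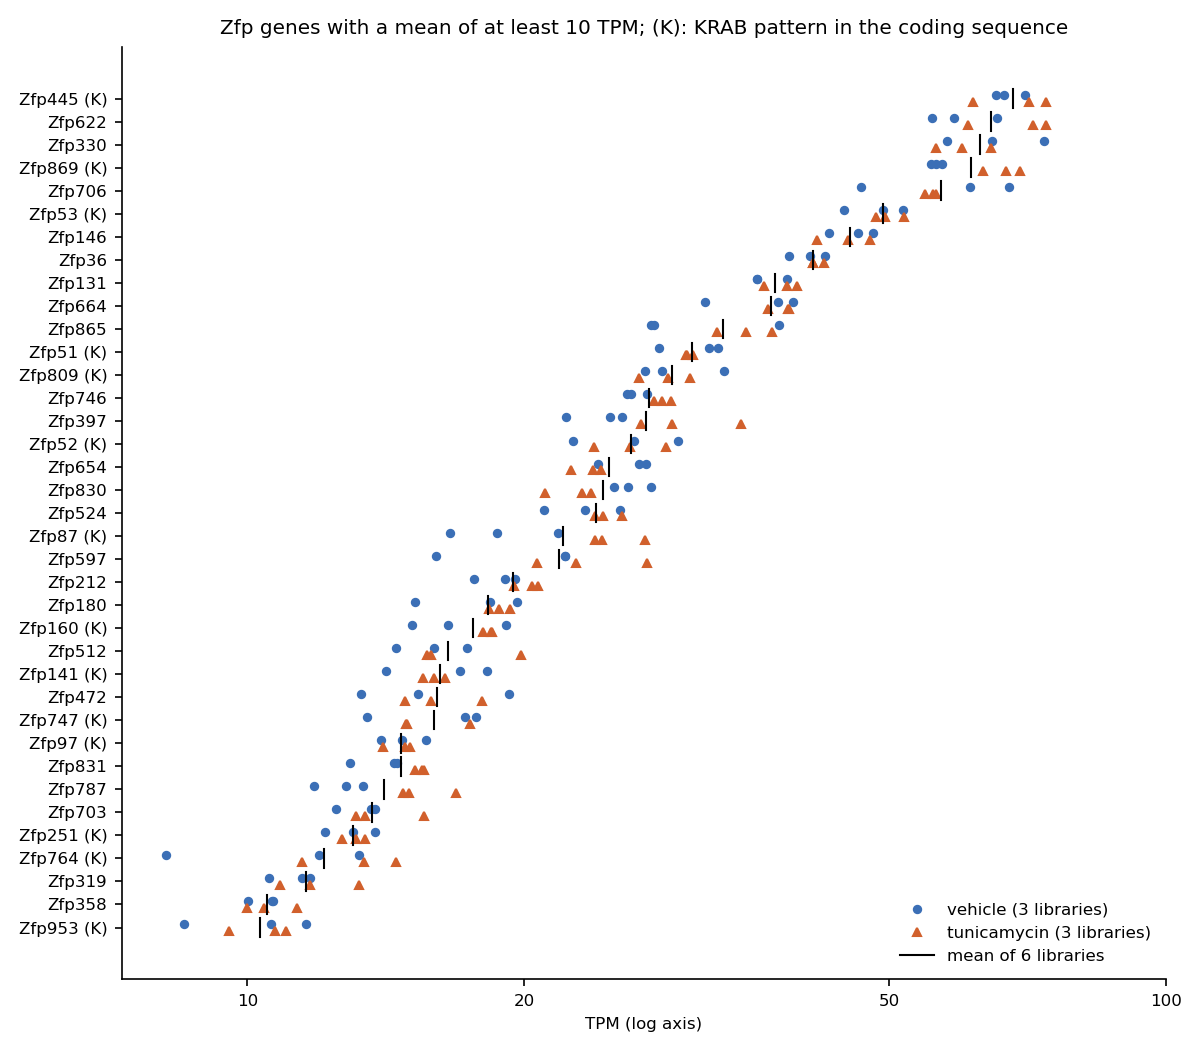
Level of the highest Zfp genes in TPM, 1 point per library, blue circles for the 3 vehicle and orange triangles for the 3 tunicamycin libraries. The order starts with Zfp445 at a mean of 68.1 TPM, and the points of neighbouring genes among the first 10 overlap.

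Zfp445 headed the order. It is a KRAB protein needed to keep imprinted regions methylated, and it lies on chromosome 9 (chr9:122844529-122866006, GRCm38). Its level was 65.3, 70.2 and 66.6 TPM in the vehicle libraries and 61.6, 73.9 and 70.9 TPM in the tunicamycin libraries. The lowest and the highest of these 6 values both came from tunicamycin libraries, so the groups overlapped. Zfp622, a maturation factor of the large ribosomal subunit (chr15:25984366-25998481), stood at 65.5, 55.6 and 58.8 TPM in vehicle and 74.0, 61.0 and 71.7 TPM in tunicamycin libraries. Zfp330, the nucleolar member, stood at 64.7, 73.7 and 57.7 TPM in vehicle and 56.2, 64.5 and 60.0 TPM in tunicamycin libraries. Both of these overlapped between groups.

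Zfp869, a KRAB member on chromosome 8 (chr8:69706332-69710724), followed at 55.5, 57.0 and 56.2 TPM in vehicle and 63.1, 67.0 and 69.4 TPM in tunicamycin libraries. It was the only one of the 10 highest whose TPM did not overlap between the groups. The log2 fold change was 0.24 on log2(TPM + 1) and 0.09 in counts (interval -0.03 to 0.21, edgeR adjusted p = 0.85), and its estimated counts per TPM were 0.11 log2 units lower in the tunicamycin group. Zfp706, whose protein has only 76 residues, averaged 57.0 TPM. Zfp53 averaged 49.2 TPM, and Zfp146, a protein made almost entirely of fingers (10 in 292 residues), averaged 45.3 TPM. Then came Zfp36 at 41.2, the BTB-domain protein Zfp131 at 37.5 and Zfp664 at 37.2 TPM. The highest of these 10 means was 1.83 times the lowest, and in all 9 neighbouring pairs of this order the ranges over the 6 libraries overlapped, so the exact order among them was not resolved.

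The share of members present was near equal with and without a KRAB match, and the share at high levels was not. At least 1 TPM was reached by 73.0% of the 63 C2H2 members with a KRAB match and by 72.9% of the 48 without one. At least 10 TPM was reached by 22.2% and 41.7%, and the medians were 3.67 and 5.63 TPM. Genes of a class are not replicates, so these shares are descriptions with no test. A pattern can miss a KRAB domain, so members without a match were not shown to lack one. Members with 1 to 5 fingers had a median of 10.9 TPM, against 4.73 TPM for 6 to 10, 3.02 TPM for 11 to 15 and 5.15 TPM for 16 or more. The 16-or-more group was nevertheless the one in which most members were present: 17 of its 18 reached 1 TPM.

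**Figure D2:**
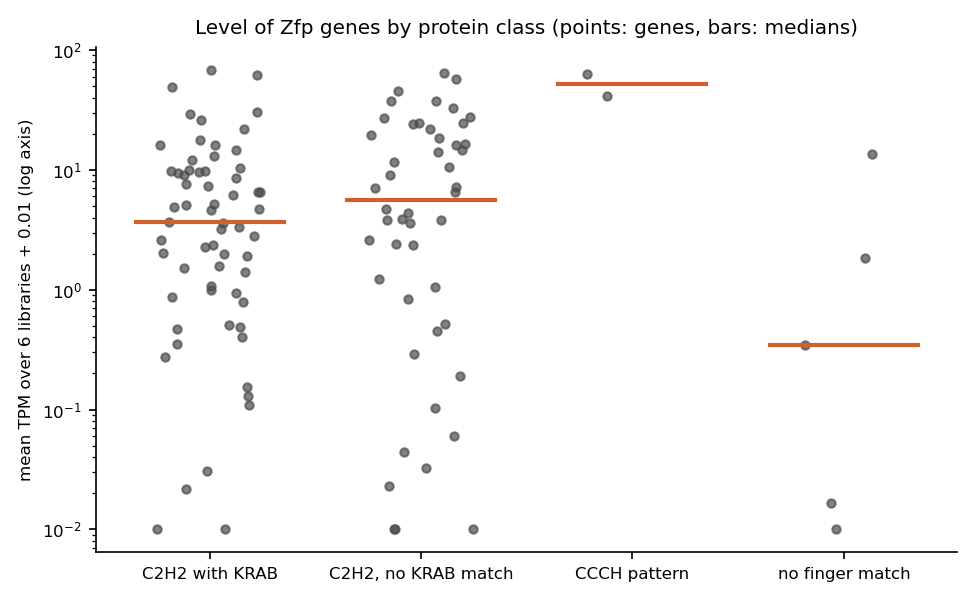
Mean TPM over the 6 libraries of each Zfp gene, on a log axis with a small constant added so that genes at 0 can be drawn, with bars at the class medians, by the pattern matched in its coding sequence. The 63 C2H2 members with a KRAB match have a median of 3.67 TPM and the 48 without one have a median of 5.63 TPM.

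At the bottom of the order, 6 members (Zfp474, Zfp42, Zfp352, Zfp648, Zfp735 and Zfp966) had no counts in any library. Zfp42, also called Rex1, is a marker of pluripotent stem cells. A further 14 had some counts but did not pass the filter on low counts; their highest estimated count in a library was 23.2 and their highest mean level 0.497 TPM. These 20 members were not tested, and 99 of the 119 were. A member can pass this filter on the counts of a single group, so what follows describes the tested members and not all 119.

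The comparison of tunicamycin with vehicle asks which of these genes changed after 4 hours with tunicamycin. The strength of the endoplasmic reticulum stress in these libraries was not examined here. No tested Zfp gene passed the threshold: 0 of 99 had an adjusted p under 0.05 in edgeR's quasi-likelihood test, against 0.083% of all 3613 genes tested, which is 3 genes, and the lowest adjusted p of a member was 0.40. With DESeq2, 0 of the 9 members that received an adjusted p passed, against 3.33% of the 601 genes with one. With limma on log2(TPM + 1), 0 of 99 passed, against 0.0277% of all genes. With the library number as a replicate block in edgeR, 0 of 99 passed, against 0.996% of all genes, and the lowest adjusted p of a member was 0.11. At an unadjusted p under 0.05, edgeR gave 5 of 99 members (5.05%), against 6.42% of all genes, 3 higher with tunicamycin (3.24% of all genes) and 2 lower (3.18% of all genes). DESeq2 gave 5 members as well (6.42% of all genes), and limma gave 10 (7.94% of all genes). The edgeR count became 8 of 101 when the first tunicamycin library was left out (6.70% of all genes) and ran from 4 to 7 when any other library was left out, while the share over all genes ran from 3.66% without the second tunicamycin library to 8.79% without the second vehicle library (6 members in each). Other edgeR fits with all 6 libraries gave 9 of 99 with library totals in place of composition factors (6.56% of all genes). They gave 8 of 113 without a filter on low counts (5.80%) and 5 of 92 with a stricter filter (7.52%). With DESeq2 size factors it was 5 of 99 (6.73%), and without robust estimation 6 of 99 (6.31%). The members' share was thus above the share over all genes in some fits and below it in others.

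The log2 fold changes of the members centred on 0. They ran from -0.73 for Zfp960 to 1.27 for a C2H2 member with a KRAB match on chromosome 6. The median log2 fold change was 0.02 over the 99 members and 0.00 over all genes tested, with 51 members (51.5%) above 0 and 48 below, against 50.1% of all genes above 0. That split depended on the scaling: with library totals in place of composition factors, 67.7% of members and 59.7% of all genes were above 0, and on TPM with limma 66.7% and 62.4% were. The 95% interval lay within a 2-fold change in either direction for 83 of the 99 members (83.8%), against 64.6% of all genes tested, and within a 1.5-fold change for 63 (63.6%), against 52.8%. The median mean level was 5.49 log2 CPM (counts per 1000000 counts of a library, after scaling) over the members and 5.32 over all genes tested. The intervals reached a median of 0.33 log2 units to either side over the members tested. That median was 0.37 over all genes tested and 0.30 over the protein-coding genes tested. For the 56 members with a mean log2 CPM of at least 5 it was 0.21, against 0.20 for all genes at that level. For the 43 members below that level it was 0.61. These intervals are not adjusted for the number of genes tested, so they do not give the smallest change that the test could detect. The change of 1.27 lay among those 43 members and did not pass the threshold.

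**Figure D3:**
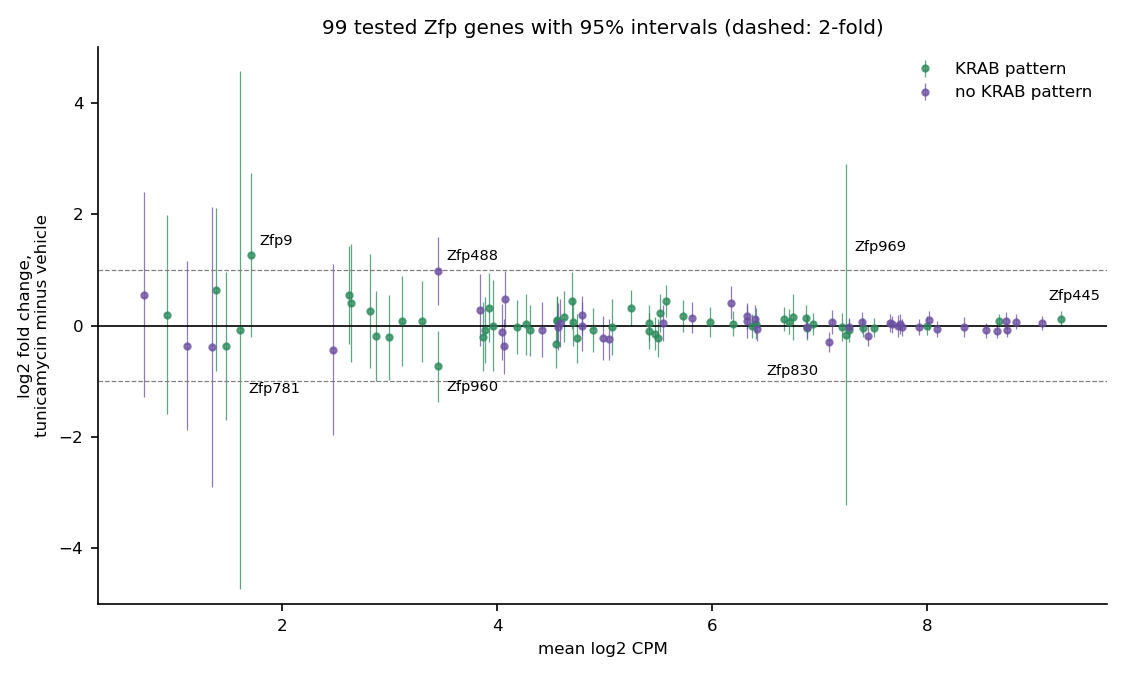
Log2 fold change, tunicamycin minus vehicle, against mean log2 CPM for the 99 tested Zfp genes, with 95% intervals and dashed lines at a 2-fold change. The points centre on 0, the intervals narrow as the level rises, and Zfp969 stands out with a wide interval at a high level.

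By class, the median log2 fold change was 0.03 over the 54 tested C2H2 members with a KRAB match and 0.01 over the 40 without one. In the run of 10 on chromosome 17, 9 members were tested, with a median of 0.06, 5 above 0 and values from -0.36 to 0.45. In the run on chromosome 13, 5 were tested, with a median of 0.03 and 3 above 0. In the run of 5 on chromosome 7 the median was -0.02, with 2 above 0. In each of these groups members lay on both sides of 0.

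The members with a recorded role fell into several groups, and none of these members passed the test. Of 7 genes listed for a role in lymphocytes, Zfp36 and Zfp831 had a row. Zfp36 (chr7:28376784-28380253) had CPM values of 438.5, 460.1 and 424.6 in vehicle and 417, 408 and 425 in tunicamycin libraries. The tunicamycin values were below the vehicle values, with a gap of under 1 CPM between the nearest libraries. The log2 fold change was -0.08 (95% interval -0.21 to 0.04, edgeR adjusted p = 0.88), and on log2(TPM + 1) it was 0.03, the opposite sign. Zfp831 had CPM values of 534, 548 and 496 in vehicle and 556, 528 and 553 in tunicamycin libraries, with a log2 fold change of 0.05 (interval -0.07 to 0.18).

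Of 9 genes listed for RNA and translation, Zfp36, Zfp622 and Zfp830 had a row. All 3 had log2 fold changes below 0 in counts, and 1 of them, Zfp830, had an unadjusted p under 0.05. Zfp622 had CPM values of 429, 415 and 399 in vehicle and 407, 369 and 391 in tunicamycin libraries, a log2 fold change of -0.09 (interval -0.23 to 0.04). On log2(TPM + 1) Zfp622 was at 0.20, again the opposite sign. The estimated counts per TPM of Zfp622, which has 4 transcripts in the annotation used here, were 0.24 log2 units lower in the tunicamycin group. Those of Zfp869, with 1 transcript in that annotation, were 0.11 lower. The part of the transcripts in this shift, and of the shift in the sign, was not tested.

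Zfp830, also called Omcg1 and needed for the survival of early embryonic cells, lies at chr11:82764345-82765935 and has 1 annotated transcript. Its CPM was 145, 155 and 147 in vehicle and 114, 122 and 129 in tunicamycin libraries. All 3 tunicamycin libraries were below all 3 vehicle libraries. The log2 fold change was -0.30 (SE 0.08, interval -0.48 to -0.11) with an edgeR adjusted p of 0.40, and this adjusted p ran from 0.11 to 1.00 over the alternative fits. Its TPM, 26.0, 27.5 and 25.1 in vehicle and 21.1, 23.1 and 23.6 in tunicamycin libraries, separated the groups as well.

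Of 6 genes listed for imprint control and silencing of retroelements, Zfp445 and Zfp809 had a row. Zfp445 had CPM values of 562, 603 and 577 in vehicle and 586, 672 and 635 in tunicamycin libraries, a log2 fold change of 0.12 (interval -0.02 to 0.26, edgeR adjusted p = 0.83). Zfp809, which silences murine leukaemia virus by binding the proviral primer binding site, had a mean of 121 ± 8.88 CPM in vehicle and 123 ± 6.99 CPM in tunicamycin libraries (SD, n = 3), a log2 fold change of 0.02 (interval -0.17 to 0.22); on log2(TPM + 1) it was -0.04. For both genes the groups overlapped. Of 14 genes listed for chromatin and transcription only Zfp131 had a row, at a log2 fold change of -0.03 (interval -0.18 to 0.12), which turned to 0.06 on log2(TPM + 1) and to 0.01 with library totals. Of 5 genes listed for stem cells and development, Zfp42 was at 0 throughout and Zfp703, a transcriptional repressor amplified in breast cancers, was tested. Zfp703 had CPM values of 176, 187 and 194 in vehicle and 151, 180 and 161 in tunicamycin libraries, a log2 fold change of -0.18 (interval -0.36 to 0.00) that became 0.07 on log2(TPM + 1). Its estimated counts per TPM were 0.21 log2 units lower in the tunicamycin group. None of the 4 genes listed for cell division and none of the 23 listed for the KRAB silencing machinery had a row, and they were not analysed here.

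The groups did not overlap in CPM for 12 of 99 members (12.1%), against 12.6% of all genes tested. Tunicamycin was higher in 7 of them (6.62% of all genes were higher in this way), namely Zfp869, Zfp948, Zfp773, Zfp712, Zfp784, Zfp174 and Zfp488. It was lower in 5 (5.95% of all genes), namely Zfp36, Zfp830, Zfp580, Zfp418 and Zfp960. Both shares were close to those over all genes.

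The 4 members with the lowest unadjusted p above 0 were Zfp488, Zfp948, Zfp773 and Zfp712. Zfp488, a nuclear protein known from oligodendrocytes (chr14:33967070-33978764), had CPM values of 7.12, 7.74 and 6.64 in vehicle and 15.02, 12.9 and 14.6 in tunicamycin libraries. These rest on 52.7 to 61.2 estimated counts per vehicle library and 147 to 161 per tunicamycin library. The values were about 2-fold apart with no overlap, at a mean level of 0.829 TPM. The log2 fold change was 0.98 (SE 0.28, interval 0.37 to 1.59) with an edgeR adjusted p of 0.40, which ran from 0.17 to 1.00 over the alternative fits. Among the natural killer and innate-like markers, 5 of the 6 tested were above 0, 2 of 6 had an unadjusted p under 0.05, and the median log2 fold change was 1.13. Their part in the Zfp488 values was not tested.

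Zfp948, a KRAB member of the chromosome 17 run (chr17:21567008-21588699), had CPM values of 43.3, 37.2 and 39.2 in vehicle and 58.1, 56.0 and 49.2 in tunicamycin libraries. The log2 fold change was 0.45 (SE 0.13, interval 0.16 to 0.73, edgeR adjusted p = 0.43, 0.14 to 1.00 over the alternative fits). Zfp773 (chr7:7127073-7136755) had CPM values of 60.0, 64.2 and 60.9 in vehicle and 71.4, 99.2 and 75.2 in tunicamycin libraries. The second tunicamycin library was above the other two, and without 1 library the log2 fold change of 0.41 (SE 0.13, edgeR adjusted p = 0.53, 0.13 to 1.00 over the alternative fits) ranged from 0.25 to 0.50. Zfp712 (chr13:67038596-67061170) had CPM values of 30.5, 35.2 and 34.7 in vehicle and 46.3, 37.3 and 41.6 in tunicamycin libraries, a log2 fold change of 0.32 with an interval that included 0 (-0.01 to 0.65).

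**Figure D4:**
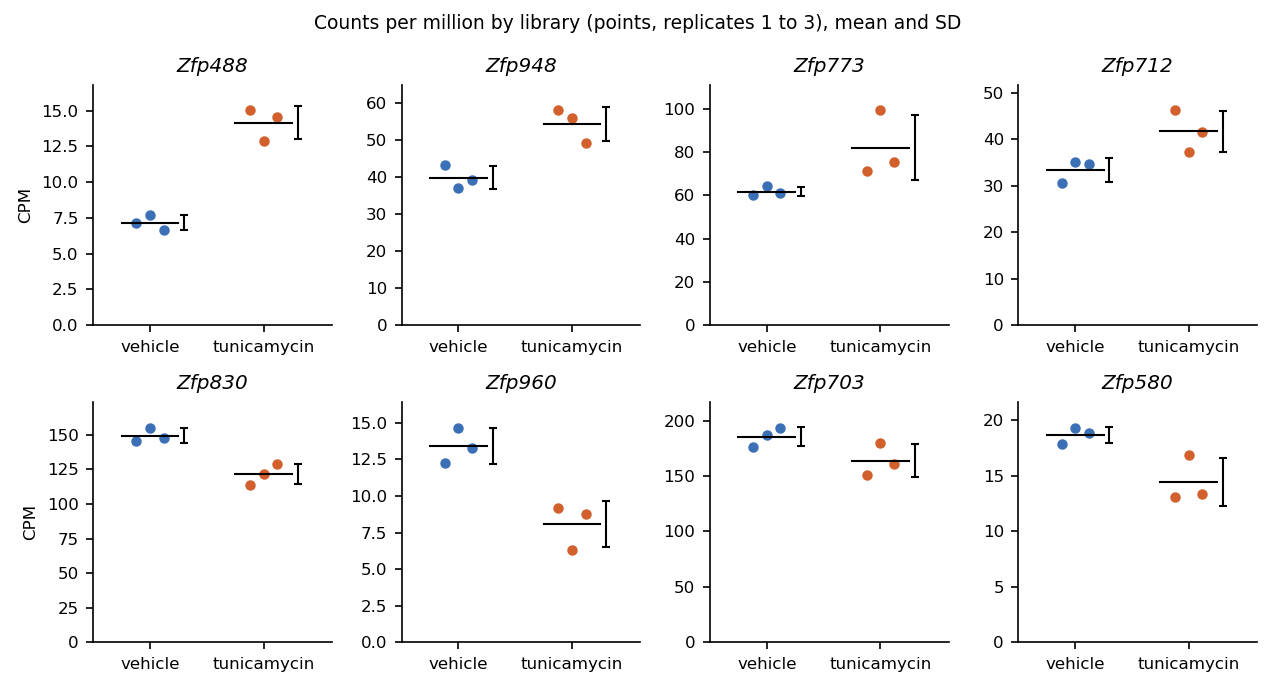
CPM by library for the 4 Zfp genes with the lowest unadjusted p above 0 (Zfp488, Zfp948, Zfp773, Zfp712) and the 4 below 0 (Zfp830, Zfp960, Zfp703, Zfp580). Points are libraries, the horizontal line is the group mean and the bar 1 SD on each side. Of the 8 genes, 7 separate the groups, Zfp703 does not, and none passes the adjusted threshold. The genes were picked by low p-values in these same libraries, which favours separated groups. Over all genes tested, 12.6% separate the groups.

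The 4 with the lowest unadjusted p below 0 were Zfp830 and Zfp703, described above, with Zfp960 and Zfp580. Zfp580 (chr7:5051538-5053723) had CPM values of 17.9, 19.3 and 18.8 in vehicle and 13.1, 16.9 and 13.4 in tunicamycin libraries, a log2 fold change of -0.37 (interval -0.86 to 0.12). Zfp960 (chr17:17064113-17089628), a KRAB member, had CPM values of 12.2, 14.7 and 13.3 in vehicle and 9.20, 6.30 and 8.78 in tunicamycin libraries. The groups did not overlap, and the log2 fold change was -0.73 (SE 0.29, interval -1.36 to -0.09, edgeR adjusted p = 0.66, 0.39 to 1.00 over the alternative fits).

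Zfp960 cannot be read alone, because its near-copy Zfp97 lies next to it. Of the 31-base words in the coding sequence of Zfp960, 88.8% also occur in Zfp97, and 85.0% of those of Zfp97 occur in Zfp960. The finger pair printed above differs at base 31 of 63, so words that span that base differ between the copies. Zfp97 had a mean of 82.7 ± 3.94 CPM in vehicle and 81.9 ± 3.90 CPM in tunicamycin libraries (SD, n = 3), a log2 fold change of -0.01 (interval -0.23 to 0.20). Per transcript length, Zfp960 averaged 1.89 TPM and Zfp97 14.7 TPM. Reads assigned to one copy or the other by estimation leave the Zfp960 value uncertain. The part of this assignment in the difference between the groups was not tested.

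Shared sequence was common among the members. In 27 of the 118 members with a coding sequence more than 50% of the coding 31-base words also occurred in another annotated gene, in 29 it was 5% to 50%, and in 62 under 5%. Of the 27, 22 were C2H2 members with a KRAB match. In 37 members no such word was shared, and in 6 every word was. The standard error of the log2 fold change had a median of 0.23 in the tested members of the most shared group, 0.13 in the middle group and 0.14 in the least shared group. The most shared group also had the lowest level, with a median log2 CPM of 4.88 against 5.98 and 5.56, and the part of either in the spread was not tested. Zfp449, with no shared word, had a standard error of 1.119 at a low mean level of 1.35 log2 CPM. For Zfp969 and Zfp781, which share all their words, it was 1.122 at 7.25 and 1.86 at 1.61 log2 CPM. Zfp706 shared 98.99% of its words with other genes and Zfp330 52.5%. Their standard errors were 0.09 and 0.07, at high mean levels of 7.72 and 7.65 log2 CPM. These genes differ in level as well as in shared sequence, so their spreads do not tell these apart.

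**Figure D5:**
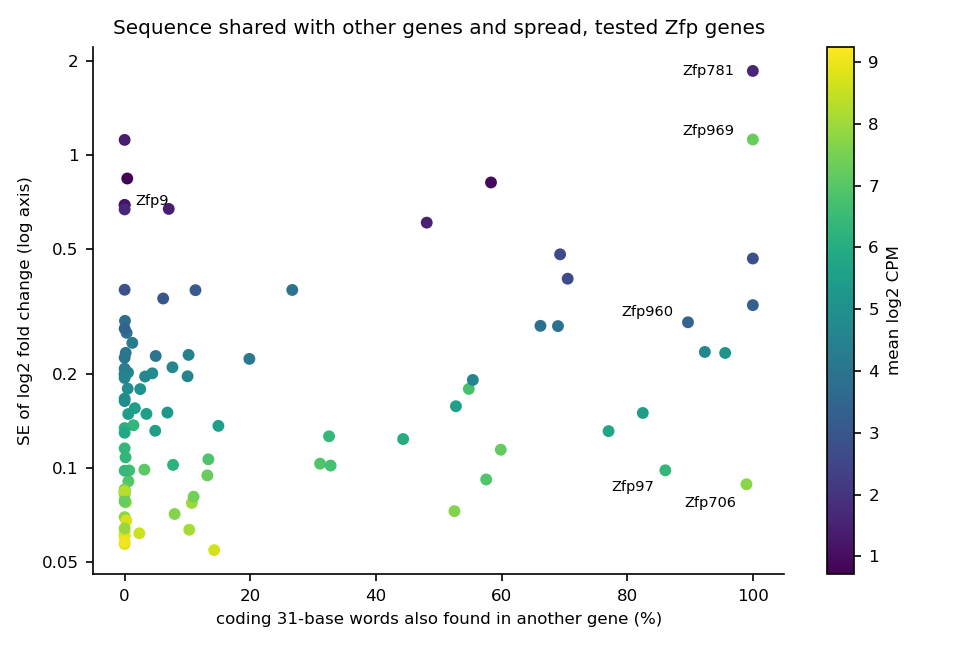
Standard error of the log2 fold change (log axis) against the percentage of coding 31-base words that also occur in another gene, for the tested Zfp genes with a coding sequence, coloured by mean log2 CPM. Zfp781 and Zfp969, at 100% shared, have the widest spread, closely followed by Zfp449 at 0%, while Zfp706 and Zfp97 have narrow spreads at 98.99% and 86.1%. Mean log2 CPM is 1.61 for Zfp781, 7.25 for Zfp969, 1.35 for Zfp449, 7.72 for Zfp706 and 6.37 for Zfp97.

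Zfp969 had the highest standard error among the 56 members at 5 log2 CPM or more. On chromosome 2, Zfp966, Zfp967 and Zfp969 each share 100% of their coding words with Zfp968, which was not analysed here. Zfp969 had estimated counts of 1203, 1401 and 1216 in the vehicle libraries and 2135, 93.1 and 2441 in the tunicamycin libraries. The second tunicamycin library stood far below the other 5 libraries. Zfp967 had 23.2, 7.09 and 0 counts in the vehicle libraries and 0 in all 3 tunicamycin libraries, and Zfp966 had 0 in all 6. The assignment of reads between these genes and Zfp968 was not tested. The log2 fold change of Zfp969 was -0.16 with an interval from -3.22 to 2.90, and ran from -1.04 to 0.40 over the alternative fits. Zfp781, also sharing all its words with other genes, had estimated counts of 0, 4.70 and 71.5 in vehicle and 31.3, 0 and 57.8 in tunicamycin libraries, with an interval from -4.72 to 4.56. For Zfp969 the spread lay mainly in the tunicamycin group, at 200, 8.14 and 221 CPM, against 162, 187 and 132 CPM in vehicle libraries. For Zfp781 the libraries differed widely within both groups.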

How the data were processed

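RNA-seq libraries (200 ng RNA, 150 bp paired reads, per the labels) were deposited by the authors as a matrix of estimated counts per gene and a matrix of TPM. Salmon, bcl2fastq, DESeq2 and the build GRCm39 appear in the submitters' processing notes, with no role or version. Symbols and positions here come from GENCODE M21 (GRCm38); positions were not converted. Here, estimated counts were rounded and tested in R 4.3.3 with edgeR 4.0.16 (filterByExpr, TMM, robust quasi-likelihood fit, Benjamini-Hochberg adjustment over all 3613 genes tested, threshold 0.05), after a test on simulated data. DESeq2 1.42.0, limma 3.58.1 on log2(TPM + 1) and log2(TPM + 0.1), other scalings and filters, a replicate block and fits without 1 library were alternatives. No pair of libraries of a group agreed within sampling noise (chi-square per degree of freedom 15.3 to 34.5). C2H2, CCCH and KRAB were pattern matches in the translated longest coding sequence. A member is named with its values if it passed the threshold, was among the 10 highest by mean TPM, was among the 4 lowest unadjusted p in each direction (mean log2 CPM of at least 3), was in a role list, or had 0 counts in one group and at least 10 in each library of the other; Zfp97, Zfp781, Zfp967 and Zfp969, and the others named, were chosen after their values were seen. The members and lists were chosen with earlier results of these data known.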

Additional observations from a re-analysis of the deposited data

How the results depend on the processing

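No Zfp gene passed the adjusted threshold in any of the 16 fits (lowest adjusted p 0.11, Zfp830 with a replicate block). Over all genes, 3 passed in the reported fit, 16 without a filter on low counts, 1 with at least 1 CPM in every library, 20 with DESeq2, 1 with limma on log2(TPM + 1), and 1 to 5 without one library. The fit with a replicate block gave 36 over all genes and 0 members, with 9 members at an unadjusted p under 0.05 (9.09%, against 10.7% of all genes). The labels give each tunicamycin library the number of a vehicle library but do not say what the number stands for. Same-numbered libraries deviated together with correlations of 0.04, 0.19 and 0.11 over all 3613 genes and of 0.30, 0.31 and 0.32 over the 1904 genes at 5 log2 CPM or more, and each library correlated best with its own number. Pairs with different numbers gave -0.13 to 0.03 over all 3613 genes and -0.23 to -0.05 over the 1904. Because the labels state no pairing, it was not taken as settled. The reported fit has no block, and both fits are given. The members' median log2 fold change of 0.02 became 0.064 with library totals, 0.0026 without a filter, 0.055 and 0.080 with limma on log2(TPM + 1) and log2(TPM + 0.1), 0.040 with the block, and -0.012 to 0.028 without one library. At a minimum of 5 TPM, 55 members counted as present, and 91 at 0.5 TPM. Of 300 alternative fold changes of 20 named genes, 28 in 8 genes changed sign, none beyond 0.18 log2 units in the reported fit. With library totals Zfp131, Zfp53 and Zfp706 became 0.015, 0.042 and 0.029. Zfp53 became 0.0026 without a filter, 0.00069 at 1 CPM and 0.0025 with the block. With limma at pseudocounts 1 and 0.1, Zfp131 became 0.055 and 0.057, Zfp330 -0.11 and -0.11, Zfp36 0.031 and 0.032, Zfp53 0.042 and 0.043, Zfp622 0.20 and 0.20, Zfp703 0.071 and 0.076, and Zfp809 -0.039 and -0.041. Without one library, Zfp131 ran from -0.065 to 0.017, Zfp53 from -0.062 to 0.069, Zfp706 from -0.089 to 0.076 and Zfp809 from -0.014 to 0.085. Without a sign change, leaving out one library moved Zfp831 to between 0.012 and 0.086, Zfp330 0.0074 and 0.088, Zfp664 0.028 and 0.13, Zfp146 -0.088 and -0.033, Zfp622 -0.13 and -0.051, Zfp36 -0.11 and -0.048, Zfp445 0.076 and 0.17, and Zfp773 0.25 and 0.50.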
